A study of Homo sapiens with 8 samples.

Results

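The metallothionein genes and a pair of zinc regulators were followed across RNA-sequencing libraries of CYP3A4-overexpressing HepG2 cells. The 10 genes were MT1A, MT1E, MT1F, MT1G, MT1H, MT1M, MT1X, MT2A, SLC30A1 and MTF1, found by gene symbol among the 60230 genes of the deposited count table, of which 22717 had at least 1 count. They were chosen by how they had differed from DMSO in an earlier look at the same libraries. Every value against DMSO below is therefore a description of these 10 genes, and calls or intervals printed for them against DMSO are not independent support. HepG2 is a human hepatocellular carcinoma line, here transfected to overexpress cytochrome P450 3A4 and kept in medium with blasticidin. The study asked whether additives of plastics are toxic to such liver cells. All 8 libraries came from this line, with 2 replicates (day 1 and day 2 in the labels) of each of 4 groups. The ctrl (DMSO) group received 0.2% DMSO. The treated groups received compound 4 (treatment label metylcresol), compound 5 (tetrabut) or compound 6 (cyclohexil) at the IC50 concentration of each, for 24 h per the study's methods, so the doses of the compounds differed from each other. The compounds are bisphenol-type antioxidants. Compounds 4 and 6 share a methylene bridge and ring methyl groups and differ in the bulky substituent, tert-butyl in compound 4 and cyclohexyl in compound 6. Compound 5 has an ethane-derived bridge and carries tert-butyl groups where the others carry methyl groups.

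Metallothioneins are very small cysteine-rich proteins that bind zinc, copper and cadmium through their thiol groups and buffer the free metal in the cell. Their genes lie in a cluster on chromosome 16 and are switched on by the metal-responsive transcription factor MTF1, which senses zinc through its zinc fingers and binds metal response elements in their promoters. SLC30A1 is the zinc exporter of the plasma membrane and is also a target of MTF1. Liver is a main site of metallothionein synthesis, and metals, glucocorticoids and oxidants are known inducers.

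Promoter windows of 250 bases before and 50 bases after the annotated start (RefSeq, GRCh38.p14) were held for 5 of the 10 genes, MT1H, MT1X, MT2A, SLC30A1 and MTF1. The 250 bases before the start are printed for the 4 of them that held a metal response core, because this short motif is the known docking site of MTF1. Each sequence is given on the strand of the gene, 5′ to 3′, and capitals mark the cores TGCACNC and TGCGCNC as found on either strand, so that a core on the other strand appears as its reverse complement.
MT2A, chr16:56608334-56608583, plus strand: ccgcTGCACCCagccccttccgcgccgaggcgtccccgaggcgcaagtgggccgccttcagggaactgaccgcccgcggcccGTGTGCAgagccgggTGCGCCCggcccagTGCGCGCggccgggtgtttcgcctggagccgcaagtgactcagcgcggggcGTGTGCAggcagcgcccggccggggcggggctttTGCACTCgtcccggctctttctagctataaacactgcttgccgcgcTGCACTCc
MT1H, chr16:56669564-56669813, plus strand: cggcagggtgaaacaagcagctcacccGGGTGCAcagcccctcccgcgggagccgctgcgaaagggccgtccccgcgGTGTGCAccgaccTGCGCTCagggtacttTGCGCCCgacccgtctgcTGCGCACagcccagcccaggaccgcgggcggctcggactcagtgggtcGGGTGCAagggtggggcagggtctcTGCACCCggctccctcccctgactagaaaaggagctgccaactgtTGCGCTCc
MT1X, chr16:56682220-56682469, plus strand: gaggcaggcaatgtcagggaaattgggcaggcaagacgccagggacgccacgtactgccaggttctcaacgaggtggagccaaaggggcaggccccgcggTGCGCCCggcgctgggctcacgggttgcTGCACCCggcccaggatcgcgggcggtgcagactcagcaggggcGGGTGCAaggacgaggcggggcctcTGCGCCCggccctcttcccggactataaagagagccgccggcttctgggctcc
SLC30A1, chr1:211579162-211579411, minus strand: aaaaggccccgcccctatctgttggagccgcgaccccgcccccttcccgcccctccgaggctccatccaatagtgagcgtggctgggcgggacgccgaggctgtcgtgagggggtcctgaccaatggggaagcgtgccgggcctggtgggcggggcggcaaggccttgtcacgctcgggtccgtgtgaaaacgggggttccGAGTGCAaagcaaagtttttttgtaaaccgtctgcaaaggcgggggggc

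Over the whole windows MT2A and MT1H each held 8 metal response cores, MT1X held 4, SLC30A1 held 2 and MTF1 held 0. Among 27305 promoter windows of the same length, 29.3% held at least 1 core, 8.59% at least 2, 0.593% at least 4 and 0.0806% at least 6. MT2A, MT1H and MT1X shared an arrangement near the start. A core on the strand of the gene began 54 bases before the start in MT2A and 53 bases before it in MT1H and MT1X, and a core on the other strand began 88 bases before it in MT2A and 78 bases before it in MT1H and MT1X. MT1B and MT4, family members outside the 10 genes, held 3 cores each. MT1B shared the arrangement, with a core on its own strand that began 53 bases and one on the other strand that began 79 bases before its start. MT4, which was at 0 counts in all 8 libraries, had a core on its own strand that began 196 bases before its start and cores on the other strand that began 209 and 90 bases before it. The antioxidant core TGACNNNGC, searched on both strands, was found 1 time each in MT2A, MT1X, SLC30A1 and MT1B, not in MT1H, MT4 or MTF1, and in 13.6% of all windows. These matches describe letters in a window and not bound sites.

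**Figure D1:**
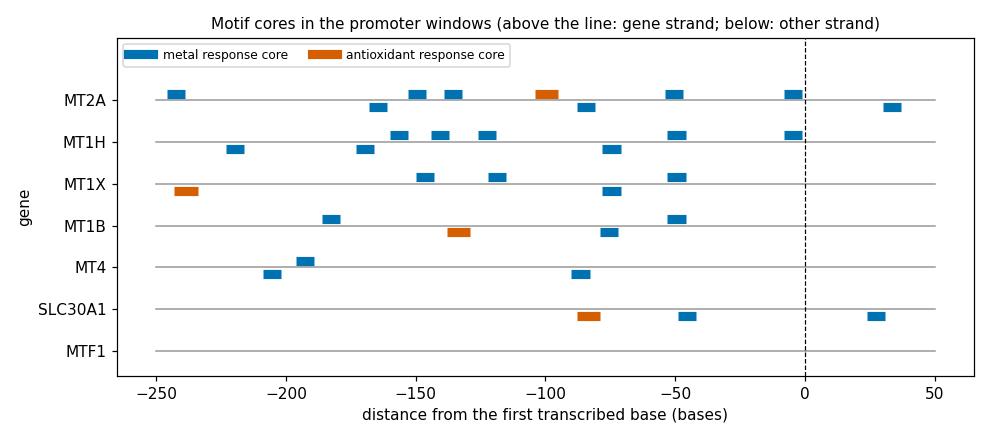
Metal response cores (blue) and antioxidant response cores (orange) in the promoter windows of 7 genes. The horizontal axis is the distance in bases from the first transcribed base, which is position 0, and marks above or below each line lie on the strand of the gene or on the other strand. MT2A and MT1H carry 8 metal response cores each and MTF1 carries 0.

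The libraries held 9472261 to 13308975 estimated counts, so 3 counts, the floor used here, corresponded to 0.225 to 0.317 CPM (the count divided by the library total and multiplied by 1000000). Hepatocyte markers were present in every library, with ALB at 12548 to 18469 CPM. Of 6 such markers, AFP and APOA1 were called lower under compounds 4 and 5 and APOA1 under compound 6, with APOA1 at 2750 and 3146 CPM in DMSO and 1509 to 2152 CPM in the treated libraries, and TTR was called higher under compound 4. The part of this movement in the results below was not tested. In contrast, the leukocyte genes PTPRC and CD3E and the fibroblast gene COL1A2 were at 0 in all 8. The fibroblast gene COL1A1 reached at most 1 count, and the endothelial genes PECAM1 and VWF held 3 to 12 counts. Levels, those of the markers above included, are CPM scaled with TMM factors (edgeR), and those below are given for each library. Log2 fold changes come from 1 edgeR fit over 13404 genes in all 8 libraries, and a gene was called when its Benjamini-Hochberg adjusted p over all these genes was under 0.05. With 2 libraries against 2, an exact permutation test of a single gene cannot go below a two-sided p of 0.333, so none was run. For the same reason, statements that libraries did not overlap are descriptions, and the share of all genes without overlap was not counted. The labels place the 2 replicates on day 1 and day 2 but do not say whether they were separate cultures. The spread between them was beyond counting error, and how much of it is technical is not known.

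MT2A, the most abundant metallothionein of these cells per kilobase of transcript, was higher with all 3 compounds. Its level was 40.03 and 43.84 CPM in the DMSO libraries, 232 and 296 under compound 4, 253 and 294 under compound 5, and 97.4 and 189 under compound 6. No treated library overlapped the DMSO libraries, the values under compounds 4 and 5 were intermingled, and both compound 6 libraries lay between DMSO and the other compounds. Against DMSO the log2 fold change came to 2.65 under compound 4 (SE 0.26), 2.70 under compound 5 (SE 0.26) and 1.78 under compound 6 (SE 0.26), which is 6.29-fold, 6.51-fold and 3.42-fold. In bulk RNA a larger number of expressing cells and more RNA per cell cannot be told apart, here and in all results below.

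MT1E and MT1G, 2 of the MT1 isoforms of the cluster, stood next in level. MT1E measured 24.7 and 31.4 CPM in DMSO, 86.4 and 137 under compound 4, 92.5 and 128 under compound 5, and 35.3 and 67.6 under compound 6. MT1G measured 15.5 and 21.3 CPM in DMSO, 50.9 and 87.4 under compound 4, 70.4 and 86.3 under compound 5, and 23.0 and 32.0 under compound 6. For both genes all libraries of compounds 4 and 5 lay above all others, and the compound 6 libraries lay above DMSO, replicate 2 of MT1E by the widest margin. MT1E differed from DMSO by a log2 fold change of 1.99 (SE 0.30), 1.97 (SE 0.30) and 0.88 (SE 0.31) under compounds 4, 5 and 6. The corresponding values of MT1G were 1.90 (SE 0.26), 2.08 (SE 0.26) and 0.58 (SE 0.27). With 1 library left out, the values under compound 6 ran from 0.34 to 1.29 for MT1E and from 0.32 to 0.83 for MT1G, both lowest without compound 6 replicate 2. MT1G is the only metallothionein of the 10 genes transcribed from the minus strand of the cluster.

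MT1F and MT1X, also MT1 isoforms, were at lower levels. MT1F was at 10.5 and 12.7 CPM in DMSO, 20.7 and 30.9 under compound 4, 32.6 and 36.6 under compound 5, and 10.00 and 11.8 under compound 6, so that compound 6 overlapped DMSO. MT1X was at 8.46 and 9.85 CPM in DMSO, 21.0 and 28.2 under compound 4, 31.5 and 39.7 under compound 5, and 12.9 and 12.1 under compound 6. In both genes every compound 5 library lay above every compound 4 library. The log2 fold changes of MT1F against DMSO were 1.15 (SE 0.20), 1.57 (SE 0.20) and -0.09 (SE 0.22) under compounds 4, 5 and 6, and those of MT1X were 1.42 (SE 0.19), 1.96 (SE 0.19) and 0.44 (SE 0.20).

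**Figure D2:**
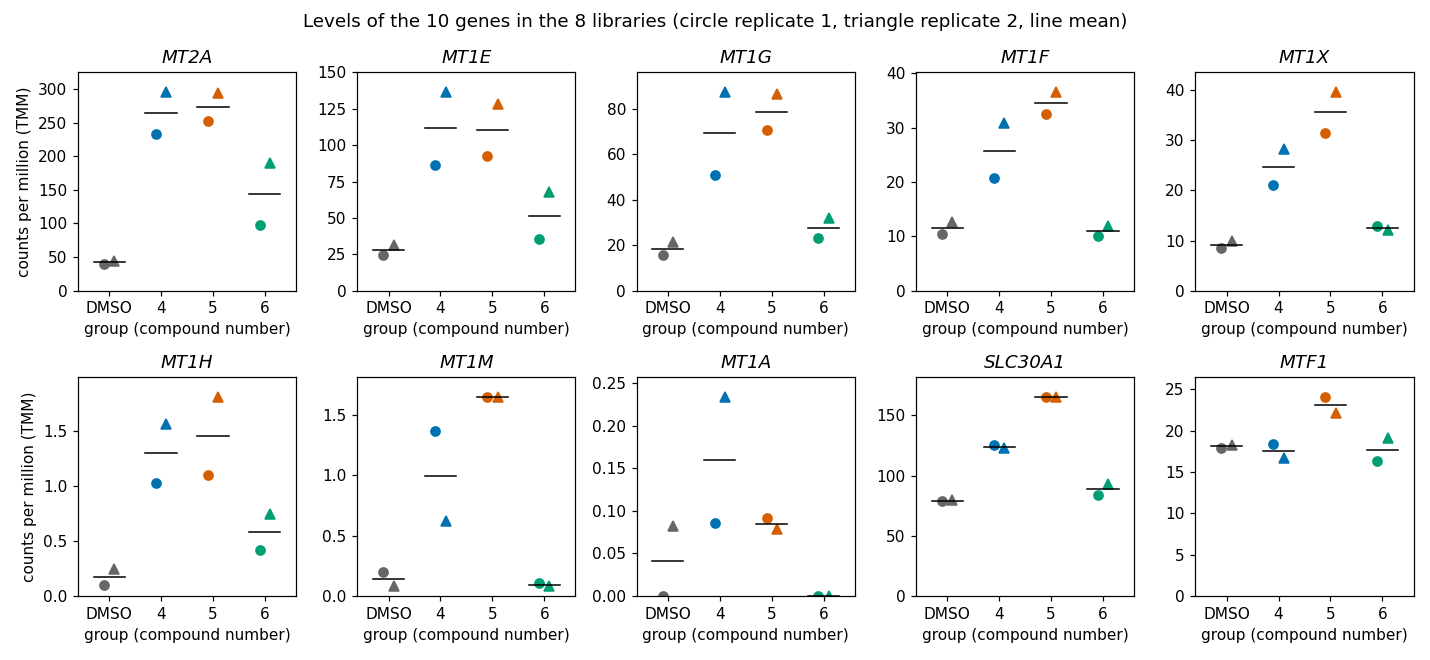
Levels of the 10 genes in the 8 libraries, 1 panel per gene. The vertical axis gives CPM with TMM scaling, the horizontal axis the group, circles and triangles replicates 1 and 2, and lines the group means. MT2A ranges from 40.03 to 296 CPM, and MT1A stays at or below 3 counts in every library.

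MT1H, MT1M and MT1A stood near the floor. MT1H held 4 counts over both DMSO libraries, 32 under compound 4, 35 under compound 5 and 13 under compound 6, and MT1M held 3, 24, 39 and 2. Relative to DMSO and corrected for depth, the count ratio of MT1H was 7.29 under compound 4 (95% interval 2.58 to 28.4), 8.26 under compound 5 (2.95 to 32.0) and 3.34 under compound 6 (1.03 to 14.1). The count ratio of MT1M was 7.29 (2.21 to 37.8), 12.3 (3.90 to 62.1) and 0.685 (0.0572 to 5.98). These exact intervals cover counting error only. Both genes passed the filter on low counts only through the groups in which they were high. MT1A, with 0 to 3 counts in any library, did not pass it and was not tested. Of the 13 further rows of the family in the table (MT1B, MT3, MT4, a paralog of MT1H and pseudogenes), none was tested, and all but MT1B were at 0 in every library. MT1B held 0 counts in DMSO, 10 under compound 4, 11 under compound 5 and 3 under compound 6. Taken over the pooled libraries of each group, with a floor of 3 counts for DMSO, the ratio of MT1B was 3.04 under compound 4 and 3.46 under compound 5. These ratios carry no interval for counting error.

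Metallothionein transcripts are similar, and reads can be shared between them. Of the 31-base words in the transcripts of each gene (GENCODE 29, an earlier release than the one the study quantified on), 27.7% recurred in another gene for MT1H, 23.8% for MT1M, 23.3% for MT1G, 19.8% for MT1X, 18.9% for MT1A, 15.6% for MT1E, 7.25% for MT2A and 3.25% for MT1F. For MT1X most of this lay outside the family, with 15.97% of its words shared with AC026461.1 and 5.30% with other family members. The split between the MT1 isoforms other than MT1X is less certain than their sum, while summing does not resolve the words that MT1X shares outside the family. The sum over the family was 99.5 and 119 CPM in DMSO, 414 and 582 under compound 4, 483 and 589 under compound 5, and 179 and 314 under compound 6. The means were 109 ± 14.1, 498 ± 118, 536 ± 74.8 and 247 ± 95.2 CPM (SD, n = 2 each). The groups under compounds 4 and 5 overlapped each other, and compound 6 lay between them and DMSO without overlap. The log2 fold change of the sum against DMSO was 2.18 (SE 0.25), 2.29 (SE 0.25) and 1.17 (SE 0.24) under compounds 4, 5 and 6, or 4.55-fold, 4.89-fold and 2.25-fold. Under compound 6 it was 0.72 without compound 6 replicate 2.

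**Figure D3:**
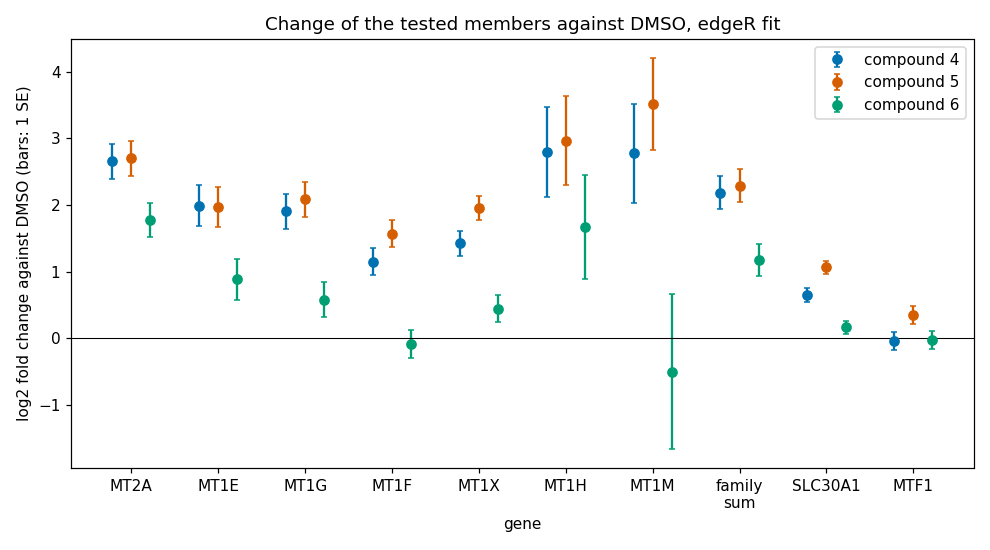
Log2 fold change against DMSO of the 9 genes tested and of the family sum, with bars of 1 SE from the edgeR fit over all 8 libraries. Compound 6 (green) lies below compounds 4 and 5 for the 7 metallothioneins shown, and MT2A under compound 6 is at 1.78.

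The composition of the family differed between DMSO and the treated libraries. MT2A made up 40.2% of the metallothionein counts in DMSO replicate 1 (95% Wilson interval 37.2 to 43.3) and 36.7% in replicate 2 (34.3 to 39.2). With compound 4 its share was 56.1% (54.7 to 57.5) and 50.9% (49.7 to 51.99), under compound 5 it was 52.3% (51.0 to 53.7) and 49.97% (48.8 to 51.1), and under compound 6 it was 54.3% (51.97 to 56.7) and 60.3% (58.8 to 61.9). All 6 treated libraries lay above both DMSO libraries. The shares of MT1F, MT1X, MT1E and MT1G went the other way, each lower in all 6 treated libraries than in both DMSO libraries. Shares of one total are not independent, and a larger share of MT2A leaves less for the others. The levels of these genes were higher under compounds 4 and 5 than in DMSO. MT1F made up 10.6% and 10.7% in DMSO and 3.77% to 6.75% in the treated libraries, and MT1X 8.50% and 8.25% against 3.85% to 7.21%. MT1E made up 24.8% and 26.3% in DMSO against 19.2% to 23.5%, and MT1G 15.6% and 17.8% against 10.2% to 15.01%. MT1E and MT1G followed MT2A in this order in all 8 libraries, and MT1H, MT1M, MT1A and MT1B together stayed a thin layer.

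**Figure D4:**
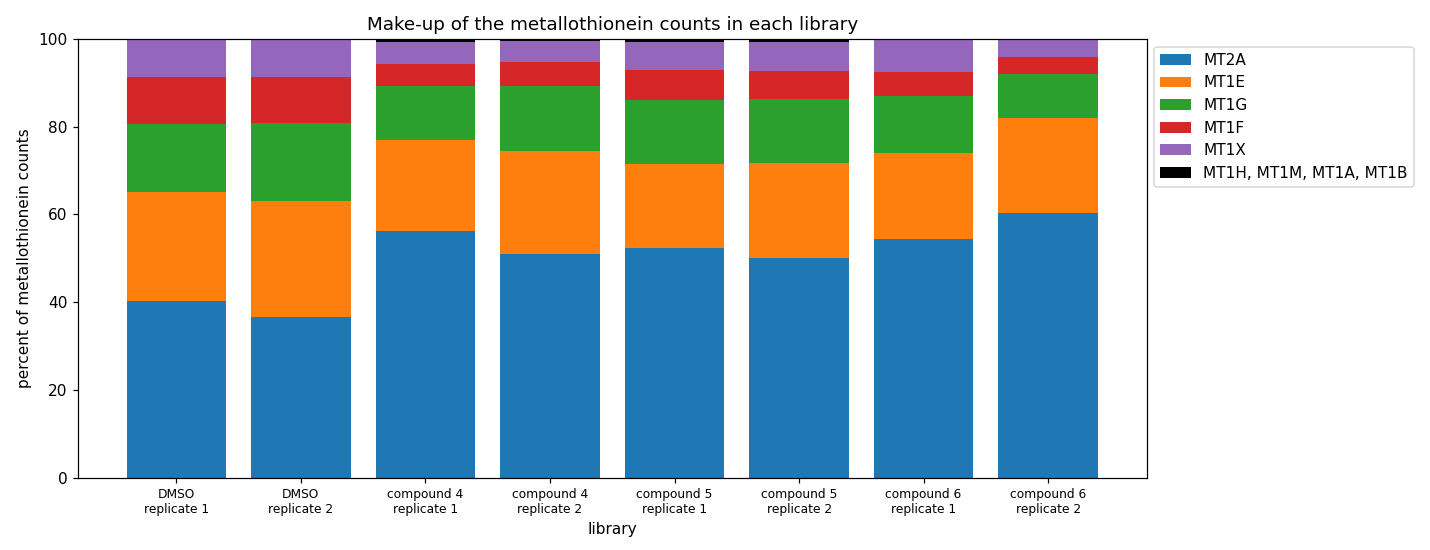
Percent of all metallothionein counts that came from each gene, 1 bar per library, with MT1H, MT1M, MT1A and MT1B combined in black. The MT2A part (blue) is 36.7% and 40.2% in the DMSO libraries and 49.97% to 60.3% in the treated ones.

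SLC30A1, the zinc exporter, differed between the groups with little spread. It was at 78.8 and 79.3 CPM in DMSO, 125 and 123 under compound 4, 165 and 165 under compound 5, and 84.1 and 93.0 under compound 6. None of the groups overlapped another, and compound 5 was highest, followed by compound 4, compound 6 and DMSO. Against DMSO its log2 fold change came to 0.65 under compound 4 (SE 0.10), 1.06 under compound 5 (SE 0.10) and 0.16 under compound 6 (SE 0.10). MTF1, the transcription factor itself, was at 17.9 and 18.3 CPM in DMSO, 18.4 and 16.7 under compound 4, 24.1 and 22.2 under compound 5, and 16.4 and 19.1 under compound 6. Only the compound 5 libraries lay above all others. Its log2 fold change was -0.05 (SE 0.14), 0.35 (SE 0.14) and -0.03 (SE 0.14). Per kilobase of transcript the mean DMSO levels were 61.4 CPM for MT2A, 45.4 for MT1G, 39.8 for MT1E, 21.0 for MT1F, 18.5 for MT1X, 14.4 for SLC30A1 and 2.27 for MTF1.

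Against DMSO, 8 of the 9 genes tested were called higher under compound 4, where 6.5% of all genes were, and 8 of 9 under compound 5, where 13.9% of all genes were. These counts hold MT1H and MT1M, without which they are 6 of 7 in both. With compound 6 only MT2A was called, against 2.8% of all genes. MTF1 was not called with any compound in this fit, and was called under compound 5 in the fit of only the groups compared. Because the genes were selected on these contrasts, nothing is read from these counts. Without DMSO replicate 1 the count under compound 4 was 5, and the count under compound 6 was 0 without either DMSO replicate and 2 without compound 6 replicate 1. With the replicate number as a block, 2 genes, MT2A and MT1E, were called under compound 6. The median log2 fold change of the 5 metallothioneins other than MT1A, MT1H and MT1M was 1.90, 1.97 and 0.58 under compounds 4, 5 and 6, beside 0.00, -0.03 and 0.00 over all genes.

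The compounds were then compared with each other in 3 pairs. These comparisons were not the ones that chose the genes, but they use the same treated libraries, and each compound was given at its own IC50. In the fit reported, compound 5 against compound 6 gave the widest difference in the family sum, though not in MT1E. MT1F was higher under compound 5 by a log2 fold change of 1.66 (95% interval 1.21 to 2.10, edgeR adjusted p = 0.0020), MT1X by 1.51 (1.11 to 1.91, edgeR adjusted p = 0.0018) and SLC30A1 by 0.90 (0.68 to 1.12, edgeR adjusted p = 0.0013). MT1G was higher by 1.503 (edgeR adjusted p = 0.0070), and both libraries of compound 5 exceeded both of compound 6 in each of these genes. Such separation of 2 libraries from 2 is a description and no further support. MT2A and MT1E were higher by 0.93 (edgeR adjusted p = 0.039) and 1.09 (edgeR adjusted p = 0.041). MTF1 did not pass, with 0.38 (edgeR adjusted p = 0.10). MT1H and MT1M, which passed the low-count filter only through the groups in which they were high, held 35 against 13 and 39 against 2 counts and are left out of the counts of calls between compounds. Of the other 7 genes, 6 were called higher, against 4.76% of all genes, and the family sum was higher by 1.12 (0.59 to 1.65, edgeR adjusted p = 0.018). These calls were sensitive to single libraries, as were the calls over all genes in this pair, which also fell in the fits named next. The count was 4 without compound 5 replicate 1, 3 without compound 5 replicate 2 and 3 without compound 6 replicate 1, and the adjusted p of the family sum was 0.073, 0.11 and 0.11 in the same fits. MT2A and MT1E missed the threshold without either DMSO replicate, either compound 5 replicate or compound 6 replicate 1, at adjusted p values of 0.056 to 0.23 in edgeR. Without compound 6 replicate 1 their log2 differences were 0.53 and 0.70, and without compound 6 replicate 2 they were 1.51 and 1.66. MT1G missed it without compound 5 replicate 2 or compound 6 replicate 1 (edgeR adjusted p = 0.054 and 0.077). DESeq2 called 4 of the 7, where 732 of 13404 genes were called higher. Adjusted over all genes and the 3 pairs together, 4 genes were called (MT1F, MT1G, MT1X and SLC30A1), against 3.75% of all genes, and MT2A and MT1E were at 0.0504 and 0.054 in edgeR.

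Compounds 5 and 4, which differ in the bridge and in the methyl positions, could be separated for 1 of the 7 genes. SLC30A1 was 1.33-fold higher under compound 5 (log2 fold change 0.41, 95% interval 0.20 to 0.63, edgeR adjusted p = 0.024), where 6.91% of all genes were called higher. Without compound 4 replicate 2, compound 5 replicate 1 or compound 5 replicate 2 its adjusted p in edgeR was 0.072, 0.12 and 0.13, although the log2 fold change stayed at 0.41 to 0.44. MT1X was higher by 0.53 (0.16 to 0.90, edgeR adjusted p = 0.059) and was called in the fit with replicate block (edgeR adjusted p = 0.042), which made 2 genes called. Without compound 4 replicate 2, MT1X and MT1F were called while SLC30A1 was not. The family sum differed by 0.10, with an interval of -0.41 to 0.62 (edgeR adjusted p = 0.79), so a difference in either direction of up to about that size is not resolved by these libraries. MT2A (0.05, interval -0.48 to 0.58) and MT1E (-0.02, interval -0.64 to 0.61) had intervals of similar width around 0. Adjusted over the 3 pairs, SLC30A1 was again the 1 gene called (edgeR adjusted p = 0.036), against 4.42% of all genes.

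Compounds 4 and 6, which differ in tert-butyl against cyclohexyl, gave a log2 difference of 1.01 for the family sum, with an interval of 0.49 to 1.54 (edgeR adjusted p = 0.24). MT1F was higher under compound 4 by 1.24 (edgeR adjusted p = 0.096), MT1G by 1.32 (edgeR adjusted p = 0.15), MT1X by 0.98 (edgeR adjusted p = 0.14) and SLC30A1 by 0.49 (edgeR adjusted p = 0.17). In each of them both compound 4 libraries exceeded both compound 6 libraries, which is again a description only. None of the 7 genes was called by edgeR, where 0.0224% of all genes were called higher, although 6 had an unadjusted p under 0.05. DESeq2 called 4, where 46 of 13404 genes were called higher. Without the low-count filter edgeR called 6, where 147 of 22717 genes were called higher. Adjusted over all genes and the 3 pairs together, 4 genes passed (MT1F, MT1G, MT1X and SLC30A1), against 0.634% of all genes, and the family sum passed (edgeR adjusted p = 0.035). For this pair the joint adjustment was the more lenient, because the other pairs hold many calls. It took the number called higher over all genes from 3 to 85, so these passes are no further support. With the replicate number as a block 3 genes passed, MT1G, MT1E and MT1F, and without compound 4 replicate 1 there were 4 genes and the family sum (edgeR adjusted p = 0.044). The calls between compounds 4 and 6 thus changed with the adjustment, the tool, the low-count filter, the replicate block and 1 library.

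Replicate 2 had the higher family sum in all 4 groups. The ratio of replicate 2 to replicate 1 was 1.20 in DMSO, 1.40 under compound 4, 1.22 under compound 5 and 1.75 under compound 6. The compound 6 pair differed by 0.81 on the log2 scale, and 4.88% of the 13404 genes had a larger gap between the same libraries. Most of it lay in MT2A, at 97.4 and 189 CPM. SLC30A1 did not share this gap, with ratios of 1.01, 0.983, 1.00 and 1.11. What sets replicate 2 apart was not tested.

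The other zinc transporters were taken from lists of the SLC30 and SLC39 families. These lists and those that follow were also chosen with earlier results of these data known, so their adjusted p-values against DMSO, although taken over all genes, are not independent support. The same holds between compounds for genes named by a call against DMSO, since the same treated libraries are used. Of 9 further SLC30 exporters 6 were tested. SLC30A10, which is known mainly as a manganese exporter, fell with all 3 compounds, from 12.0 and 12.4 CPM in DMSO to 5.04 and 5.30 under compound 4, 4.58 and 7.37 under compound 5, and 6.67 and 6.66 under compound 6. No treated library reached the DMSO level, and the log2 fold changes were -1.24 (edgeR adjusted p = 0.0054), -1.02 (edgeR adjusted p = 0.0062) and -0.87 (edgeR adjusted p = 0.048). SLC30A7 and SLC30A5, which load zinc into the secretory pathway, rose under compound 5, by 0.85 (edgeR adjusted p = 0.0017) and 0.46 (edgeR adjusted p = 0.0066), and stood at 0.15 to 0.22 under compounds 4 and 6, which did not pass. In all, 0 exporters were called higher and 1 lower under compound 4, 2 and 1 under compound 5, and 0 and 1 under compound 6. The shares of all genes called were 6.5%, 13.9% and 2.8% higher and 5.42%, 14.2% and 1.6% lower under compounds 4, 5 and 6. The balance under compound 5 depended on the scaling. Of 13404 genes, 1857 were called higher and 1906 lower with TMM, 1449 and 2515 with upper-quartile scaling, and 1358 and 2718 with library size alone. The median log2 fold change of the 6 exporters was -0.15, -0.05 and -0.04. Leaving out single libraries took the SLC30A10 call away under compound 4 (adjusted p 0.060 without DMSO replicate 2), under compound 5 (0.057 without compound 5 replicate 1) and under compound 6 (0.10 to 0.33 without either DMSO or either compound 6 replicate), and that of SLC30A5 without DMSO replicate 1 (0.057), all in edgeR. The SLC30A10 call under compound 6 was also lost with the replicate block (edgeR adjusted p = 0.054) and in DESeq2 (adjusted p = 0.078).

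Among the 14 SLC39 importers 11 were tested. SLC39A10, a plasma membrane importer that MTF1 is known to repress, was at 32.2 and 33.6 CPM in DMSO, 23.1 and 18.0 under compound 4, 18.3 and 15.9 under compound 5, and 37.9 and 33.3 under compound 6. It fell under compound 4 by 0.68 on the log2 scale (SE 0.15, edgeR adjusted p = 0.015) and under compound 5 by 0.94 (SE 0.15, edgeR adjusted p = 0.0016), and stood at 0.11 under compound 6 (edgeR adjusted p = 0.73). Between compounds 5 and 6 the log2 difference was -1.06 (edgeR adjusted p = 0.0042), and -1.15 to -0.957 with 1 library left out. This value is a description, because SLC39A10 was named by its call under compound 5 against DMSO, which uses the same compound 5 libraries. No other listed gene outside the 10 was followed through the left-out fits for a pair of compounds. The call under compound 4 was lost without DMSO replicate 1, DMSO replicate 2 or compound 4 replicate 2 (edgeR adjusted p = 0.066, 0.11 and 0.070). SLC39A4, the importer of the gut epithelium, fell under compound 5 by 0.69 (edgeR adjusted p = 0.0015), and SLC39A7, which releases zinc from the endoplasmic reticulum, rose with it by 0.65 (edgeR adjusted p = 0.0022). By count, 1 importer was called higher and 1 lower under compound 4, 2 and 2 under compound 5, and 0 under compound 6, where edgeR gave 1 at an unadjusted p under 0.05 and DESeq2 called 0. These counts stand beside 6.5% and 5.42% of all genes called higher and lower under compound 4, and 13.9% and 14.2% under compound 5. The median over the 11 importers was 0.02, 0.12 and 0.05.

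**Figure D5:**
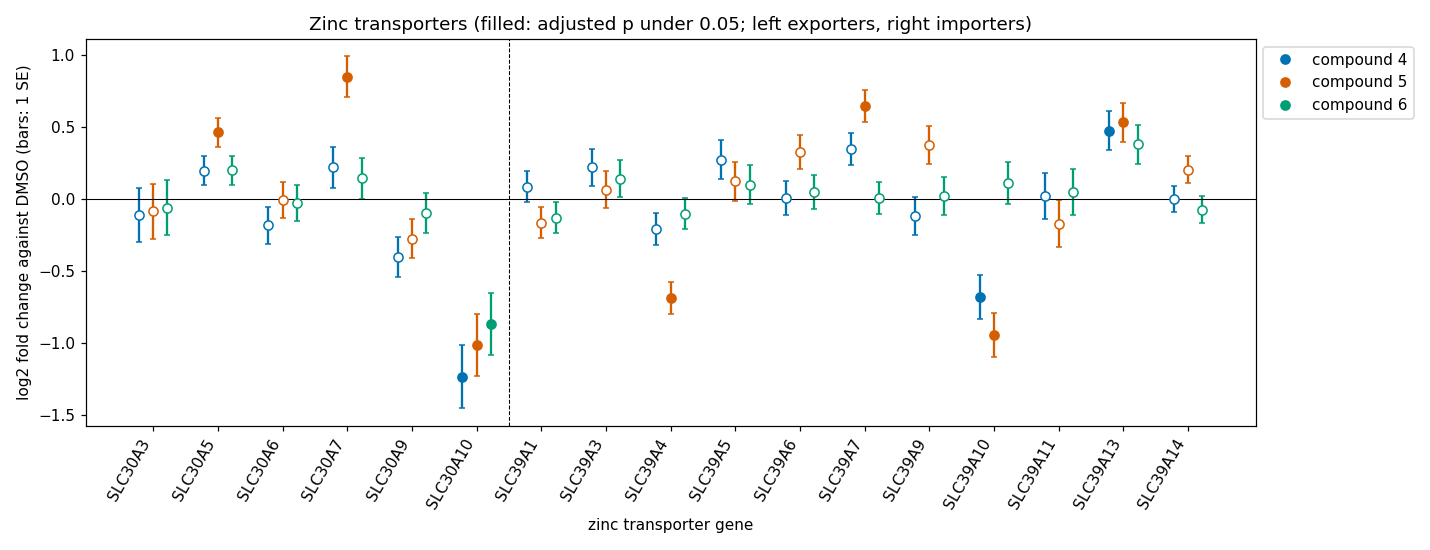
Log2 fold change against DMSO of the tested zinc transporters other than SLC30A1, exporters left of the dashed line and importers right of it, with bars of 1 SE. Filled points have an edgeR adjusted p under 0.05. SLC30A10 is lower with all 3 compounds, and SLC39A10 is lower under compounds 4 and 5 but at 0.11 under compound 6.

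Genes linked to MTF1 outside the family formed a list of 8, all tested. With each compound 4 of them were called higher, namely HAMP, TXNRD1, GCLC and SLC40A1. Under compounds 4, 5 and 6, 1, 2 and 0 were called lower, SLC39A10 under compounds 4 and 5 and SELENOW under compound 5. This stands beside 6.5%, 13.9% and 2.8% of all genes called higher and 5.42%, 14.2% and 1.6% called lower. SLC39A10, which MTF1 is known to repress, is also among the importers above and enters the median of this list. The median of the list was 0.68, 0.62 and 0.34. HAMP, the hormone of iron regulation, was at 26.2 and 17.5 CPM in DMSO and at 53.8 to 68.9 CPM in the 6 treated libraries, with log2 fold changes of 1.38 (edgeR adjusted p = 0.0012), 1.502 (edgeR adjusted p = 0.00030) and 1.53 (edgeR adjusted p = 0.0042) under compounds 4, 5 and 6. Between compounds 5 and 6 the log2 difference of HAMP was -0.03 and did not pass (edgeR adjusted p = 0.92). TXNRD1, thioredoxin reductase, and GCLC, the catalytic subunit of glutathione synthesis, rose under compound 5 by 1.48 (edgeR adjusted p = 0.00011) and 1.46 (edgeR adjusted p = 9.3e-05). With compound 4 they rose by 0.75 and 0.61 (edgeR adjusted p = 0.0069 and 0.011), and under compound 6 by 0.76 and 0.62 (edgeR adjusted p = 0.016 and 0.024). These calls of TXNRD1 and GCLC under compound 4 were lost without either DMSO replicate, and those under compound 6 also without compound 6 replicate 2 (edgeR adjusted p = 0.051 to 0.25), as was that of HAMP under compound 6 without DMSO replicate 2 (edgeR adjusted p = 0.082). TXNRD1 and GCLC are also known targets of the oxidant-sensing factor NRF2.

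Of 10 genes of metal and thiol stress, 3 were called higher with every compound, SLC7A11, SRXN1 and GCLM, beside 6.5%, 13.9% and 2.8% of all genes under compounds 4, 5 and 6. SLC7A11, the cystine importer, was at 54.97 and 53.20 CPM in DMSO, 137 and 89.3 under compound 4, 311 and 213 under compound 5, and 141 and 200 under compound 6, or 1.06, 2.27 and 1.66 on the log2 scale (edgeR adjusted p = 0.016, 0.00020 and 0.0064). SRXN1, sulfiredoxin, and GCLM, the regulatory subunit of glutathione synthesis, rose under compound 5 by 1.48 and 1.38 (edgeR adjusted p = 9.7e-05 and 0.00016), under compound 4 by 0.89 and 0.63 (0.0021 and 0.016) and under compound 6 by 0.77 and 0.79 (0.012 and 0.014). Between compounds 4 and 6 these 3 genes differed by -0.59, 0.12 and -0.16 (edgeR adjusted p = 0.46, 0.78 and 0.72), beside 1.01 for the metallothionein sum in the same comparison, and none of these values passed. Between compounds 5 and 4 the same 3 genes were called higher, and HMOX1 and HSPA1B lower, beside 6.91% of all genes called higher. The metallothionein sum differed by 0.10 there. Between compounds 5 and 6, GCLM and SRXN1 were called higher, beside 4.76% of all genes, and the sum differed by 1.12. A common cause was not tested. The other gene of the list called against DMSO was HMOX1, heme oxygenase, which fell under compound 5 by 0.36 (edgeR adjusted p = 0.026). The calls of SLC7A11 and GCLM under compound 4 and of the 3 genes under compound 6 were lost without either DMSO replicate, those under compound 6 also without compound 6 replicate 2, and that of SLC7A11 under compound 4 also without compound 4 replicate 1 (edgeR adjusted p = 0.053 to 0.15). The median over the 10 genes was 0.24, 0.13 and -0.03 under compounds 4, 5 and 6.

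Of 11 copper handling genes, all tested, 3 were called under compound 5, 1 higher and 2 lower, beside 13.9% and 14.2% of all genes, a share close to that over all genes. The medians of the list were 0.01, -0.14 and -0.02 under compounds 4, 5 and 6. SLC31A1, the copper importer, rose by 0.61 (edgeR adjusted p = 0.0025), and the copper chaperone ATOX1 and COMMD1 fell by 0.76 and 0.54 (edgeR adjusted p = 0.0052 and 0.029). No gene was called under compound 4, where edgeR gave 3 at an unadjusted p under 0.05 and DESeq2 called 0, or under compound 6, where both gave 0. The call of ATOX1 was lost without compound 5 replicate 1 (edgeR adjusted p = 0.059) and that of COMMD1 without any DMSO or compound 5 library (edgeR adjusted p = 0.088 to 0.16) and in DESeq2 (adjusted p = 0.12). Of 10 glucocorticoid response genes 8 were tested, and 4 were called higher and 1 lower under compound 5, beside 13.9% and 14.2% of all genes. The medians of this list were 0.33, 0.70 and 0.14. TSC22D3, from 0.492 and 0.0821 CPM in DMSO and 1.83 and 1.73 CPM under compound 5, rose by 2.66 (edgeR adjusted p = 0.011), KLF9 by 1.34 (edgeR adjusted p = 0.023) and DUSP1, a phosphatase of stress kinases, by 1.25 (edgeR adjusted p = 0.00022). With compounds 4 and 6 no gene of this list was called, while 1 and 4 had an unadjusted p under 0.05 in edgeR and DESeq2 called 0. TSC22D3 rested on 5 and 1 counts in the DMSO libraries, so it passed the filter on low counts only through treated libraries. The adjusted p of TSC22D3 and its place among the 4 genes called higher are thus a description only. The log2 fold change of TSC22D3 was 4.27 without DMSO replicate 1 and 1.85 without DMSO replicate 2, and that of KLF9 was 2.01 and 0.86. TSC22D3 missed the threshold without DMSO replicate 2 or compound 5 replicate 1 (edgeR adjusted p = 0.084 and 0.0501), and KLF9 without DMSO replicate 2 or either compound 5 replicate (edgeR adjusted p = 0.079 to 0.15).

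The genes whose pattern over the 8 libraries was most like that of the family sum were GRB7, UAP1L1, SLC20A1, TUBB2A and WDR45, with Pearson correlations of log2 CPM of 0.990, 0.986, 0.986, 0.984 and 0.983 among 12688 genes. The 8 points share the 4 groups, so such values describe a common order of the groups and libraries. SLC20A1, a sodium-coupled phosphate importer, was at 116 and 117 CPM in DMSO, 301 and 317 under compound 4, 343 and 329 under compound 5, and 170 and 225 under compound 6. Both compound 6 libraries lay between DMSO and the other compounds, and replicate 2 of compound 6 was the higher one. SLC30A1 ranked 339 in this likeness (r = 0.891) and MTF1 ranked 3356 (r = 0.448).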

How the data were processed

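RNA-sequencing was analysed in 8 libraries, 2 replicates of each of 4 groups. Per the labels and the study's methods, the authors extracted total RNA, prepared directional libraries, checked the reads with FastQC 0.12.0, quantified transcripts with Salmon 1.5.0 on the GENCODE transcriptome (GRCh38) and brought the estimates to gene level through tximeta. The authors deposited the resulting estimated counts per gene, which held whole numbers only, with no normalization and no mark of the replicate spread. Column names show that replicate 1 of compounds 4 and 5 were merged from 2 S numbers each, which are not explained in the sources used here.

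Gene symbols were matched by Ensembl ID (60089 of 60230 rows). Counts were fitted with edgeR 4.0.16 (R 4.3.3, limma 3.58.1) after filterByExpr, which left 13404 genes, with TMM scaling, a quasi-likelihood F-test and Benjamini-Hochberg adjustment over all genes tested, cutoff 0.05, as in the study. DESeq2 1.42.0, which the authors used in version 1.38.3, was run as an alternative. The fit was also run on simulated data as a check of the code, and no result above rests on that run. The metallothionein sum replaced the 21 rows of the family by 1 row. Intervals for shares are Wilson intervals, and those for ratios of few counts are exact, at 95%, for counting error only. Motifs were counted in RefSeq promoter windows. Log2 CPM for the likeness used a prior count of 2 and a mean of 1 CPM or more. Named genes outside the 10 were at most the 3 with the widest change per list among those called against DMSO, plus the cell markers, and the 5 most alike genes. HMOX1, HSPA1B, SELENOW and SLC40A1, the exceptions, were named after their values were seen. The members and the gene lists were chosen with earlier results of these data known.

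Totals ranged from 9472261 to 13308975 counts. Replicates were no duplicates, with chi-square per degree of freedom of 5.51 to 17.2. The labels give replicates a day number, shared across groups. The fit reported has no block for it, and a fit with this block was the paired alternative. Same-numbered libraries deviated together only weakly, with correlations of -0.08 to 0.16 over 13404 genes between group pairs. Alternatives were other scalings, filters and cutoffs, DESeq2, a replicate block, fits of the compared groups alone, each library left out in turn and, added after seeing the data, adjustment over the 3 pairs of compounds. Where a library was left out, the remaining one of its group was assumed to vary like the other groups.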

Additional observations from a re-analysis of the deposited data

How the results depend on the processing

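Of the values printed for the metallothioneins, the zinc regulators and the listed genes, those that moved under another setting were mainly calls between compounds. Counts of the 10 genes here hold MT1H and MT1M. Without the filter on low counts, 3 of the 10 genes were called with compound 6 against DMSO, 3 with compound 5 against compound 4 and 7 with compound 4 against compound 6, and the family sum of the last pair passed at 1.01. Over all 22717 genes of that fit 847, 1630 and 147 were called higher in these comparisons. In the fit reported these numbers were 375, 926 and 3 of 13404. RLE scaling and a minimum of 10 counts in every sample each gave 2 with compound 5 against compound 4, where 1076 of 13404 and 1046 of 11981 genes were called higher. DESeq2 gave 4 with compound 5 against compound 6 and 4 with compound 4 against compound 6, and 3 of the other listed genes in the last pair (0 in edgeR, and 4 without the filter). Over all 13404 genes it called 732 and 46 higher in these pairs. A cutoff of 0.01 left 0 and 4 of the 10 genes with compound 5 against compounds 4 and 6, left 5 and 2 of the other listed genes with compounds 4 and 6 against DMSO and 6 and 5 with compound 5 against compounds 4 and 6, and took away the call of the family sum with compound 5 against compound 6 (1.12). The sum with compound 6 against DMSO (1.17) also lay past the cutoff of 0.05 and not that of 0.01, which, like every count of the 10 genes against DMSO, is a description of genes chosen on that contrast. Adjustment over the 3 pairs of compounds, the more lenient one for this pair, gave 5 genes with compound 4 against compound 6, where 85 of 13404 genes were called higher. The family sum passed at 1.01. With the replicate number as a block, 2 genes were called with compound 6 against DMSO, 2 with compound 5 against compound 4 and 3 with compound 4 against compound 6. Over all 13404 genes 319, 813 and 5 were called higher in these comparisons. No other count of the 10 genes or of the other listed genes together changed by over 1.5 times with the block, while the call of SLC30A10 under compound 6 was lost. Over all genes, those called higher with compound 4 against compound 6 went from 3 to 5 and those called lower from 3 to 1. The causes were not tested.

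Values near 0 changed sign. Between compounds 5 and 4, MT1E was at 0.0104 with RLE scaling, 0.0102 with DESeq2, 0.00959 without the filter, 0.000802 with the block and 0.00428 in the fit of these groups alone, and MT2A was at -0.0191 with upper-quartile scaling and -0.0154 with library size alone. With each library left out in turn, the count of the 10 genes called was 5 to 8, 7 to 8 and 0 to 2 with compounds 4, 5 and 6 against DMSO, and 0 to 2, 3 to 7 and 0 to 4 in the pairs 5 against 4, 5 against 6 and 4 against 6. The counts of the other listed genes were 2 to 11, 14 to 29 and 0 to 8, and 2 to 17, 3 to 17 and 0 to 2. The family sum ranged from 1.93 to 2.41, 2.14 to 2.45 and 0.72 to 1.55, and from -0.12 to 0.38, 0.77 to 1.60 and 0.65 to 1.47. Single genes that changed sign ranged, between compounds 5 and 4, from -0.31 to 0.36 for MT1E, -0.16 to 0.63 for MT1G, -0.24 to 0.52 for MT1H and -0.11 to 0.24 for MT2A, with compound 6 against DMSO from -0.21 to 0.0608 for MT1F, -1.01 to 0.15 for MT1M and -0.14 to 0.10 for MTF1, and for MTF1 from -0.12 to 0.0415 with compound 4 against DMSO and -0.14 to 0.10 between compounds 4 and 6. At this depth MT1A, MT1B, MT1H and MT1M cannot be resolved further.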
